A study of Saccharomyces cerevisiae with 6 samples.

Results

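The 10 genes described here encode the enzymes that make leucine, valine and, in the shared steps, isoleucine in the budding yeast Saccharomyces cerevisiae. They are ILV2, ILV6, ILV5, ILV3, LEU4, LEU9, LEU1, LEU2, BAT1 and BAT2, and they were found through the gene symbols that the platform annotation gives to the array's probe sets. All 10 were measured, each by 1 probe set whose name does not mark it as binding several transcripts, among 5449 yeast genes tested. The study used 6 one-colour Affymetrix arrays, 3 with the label wild type (WT) and 3 with the label of a mutant of GPM1, whose product, phosphoglycerate mutase, works in glycolysis. Per the labels every culture was grown in batch with ethanol and glycerol as carbon sources. Sources used here give neither the strain background nor other alleles of either strain, nor the growth phase at sampling. No label ties the 3 arrays of a group to separate cultures, and p-values therefore measure the spread between these RNA samples alone, which may be technical.

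Valine and isoleucine are built in the mitochondrion by parallel runs of the same enzymes. Acetolactate synthase condenses pyruvate with a second keto acid, a reductoisomerase and a dehydratase follow, and an aminotransferase adds the amino group last. Leucine branches off at ketoisovalerate, the keto acid of valine, which isopropylmalate synthase extends with acetyl-CoA, and the next enzymes of that branch work in the cytosol. The intermediate isopropylmalate switches the transcription factor Leu3 to its activating form, and Gcn4, the activator of the general amino acid response, acts on many genes of the pathway.

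Before the pathway itself, the deleted gene was read as a check of the labels, and it went against them. For the label WT the log2 values of GPM1 were 5.16, 5.12 and 5.17, and for the label gpm1 they were 12.51, 12.48 and 11.82. A background level was taken from 1746 probe sets whose gene ID was not found in the S. cerevisiae gene table. GPM1 lay under its 95th percentile of 6.10 on every array labelled WT. Groups are therefore called by their labels throughout, and every direction is that of the arrays labelled gpm1 against those labelled WT, not of the genotype. The arrays labelled gpm1 also spread far more than the others, with a median SD over all genes of 0.25 against 0.05 on the log2 scale. Probe sets for the poly-A control transcripts, which are spiked into RNA before labelling, averaged 5.93, 6.24 and 6.24 on the arrays labelled WT and 7.19, 6.71 and 6.23 on labelled gpm1 replicates 1, 2 and 3. The difference between the 3' and the 5' probe set of the actin gene, a measure of RNA integrity, stood at 0.65, 0.47 and 0.46 for labelled gpm1 replicates 1, 2 and 3 and between 0.46 and 0.58 on the arrays labelled WT.

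None of the 10 pathway genes passed the test between the labelled groups, although most lay lower in the mean of the arrays labelled gpm1. With limma, 0 of the 10 genes passed an adjusted p of 0.05, where 0.807% of all genes tested did, and 0 of the 10 had an unadjusted p under 0.05, where 22.4% of all genes did. Adjusted p-values ran from 0.279 for ILV5 to 0.896 for LEU9. The log2 differences ran from -0.54 for ILV5 to 0.14 for BAT1, with 7 genes lower and 3 higher. Their median was -0.31, beside 0.02 for all genes. Array values are relative to the rest of each sample's RNA, so a smaller amount of all RNA would not appear in them.

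The lower values came mostly from 1 array, and without it the median of the 10 genes was -0.01. This array, labelled gpm1 replicate 1, lay below the WT mean for all 10 genes, and for 2477 of all 5449 genes. It gave the lowest value of all 6 arrays for 8 of the 10, where it did so for 27.5% of all genes. At least 2-fold lower there were 3 genes, LEU2, ILV2 and LEU1, where 6.53% of all genes were. In labelled gpm1 replicate 2 the genes went both ways, with 6 lower and 4 higher, beside 2758 of all 5449 genes lower. Of the 10, 0 reached 2-fold there (3.96% of all genes were at least that much lower). In labelled gpm1 replicate 3, 8 genes lay above the WT mean and 2 below it, beside 2495 of all 5449 genes below it. There 7 of the 10 lay above all 3 arrays labelled WT, where 42.5% of all genes did so, and 0 were at least 2-fold lower (0.936% of all genes). The median of the 10 genes against the WT mean was -0.74, -0.11 and 0.08 in replicates 1, 2 and 3, beside 0.05, -0.01 and 0.02 for all genes. The poly-A controls were highest on replicate 1 too, and their part in these values was not tested.

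**Figure D1:**
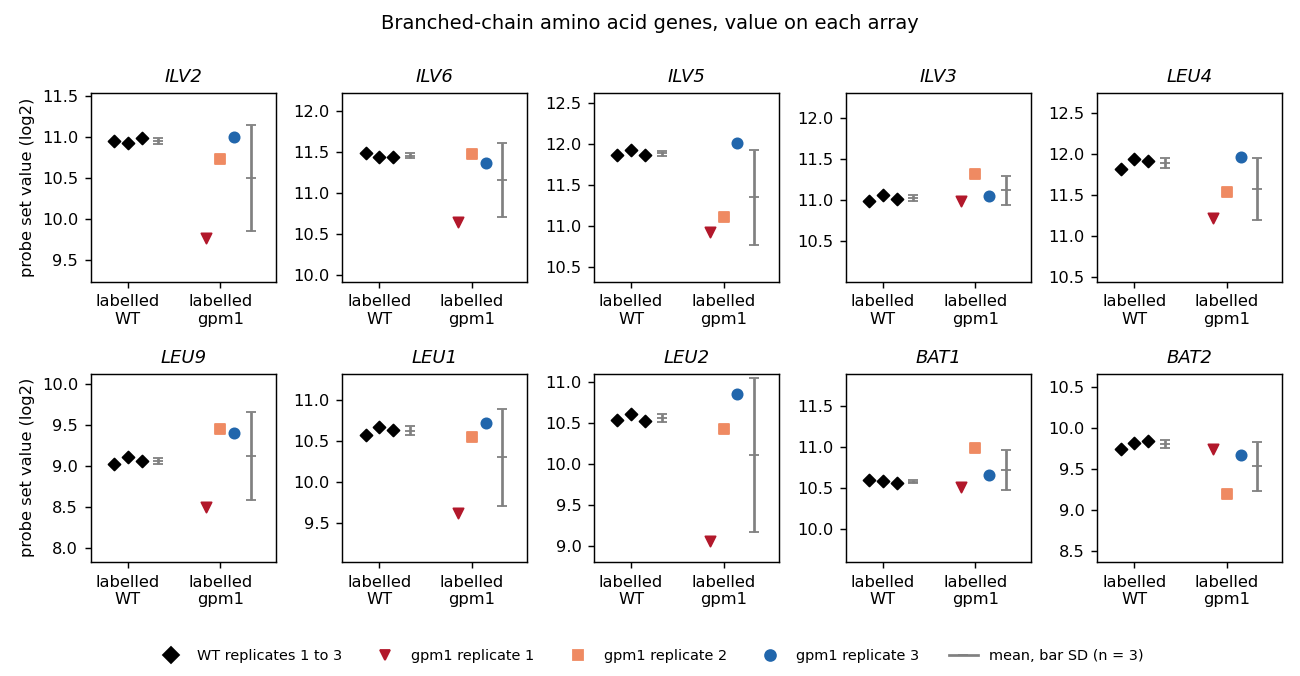
The log2 value of each of the 10 genes on each array, with 3 arrays labelled WT as black diamonds, labelled gpm1 replicates 1, 2 and 3 as a triangle, a square and a circle, and the mean with SD (n = 3) in grey. Every panel spans the same log2 range, and the triangle of replicate 1 lies clearly below the black diamonds for all genes but ILV3, BAT1 and BAT2.

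ILV2 and ILV6 encode the catalytic and the regulatory subunit of acetolactate synthase, the enzyme that commits pyruvate to the pathway, and Ilv6 carries the feedback inhibition by valine. For ILV2 the log2 values were 10.94, 10.92 and 10.99 on the arrays labelled WT and 9.77, 10.73 and 10.99 on those labelled gpm1. Replicate 1 was 2.27-fold below the WT mean, replicate 2 was slightly below it, and replicate 3 matched the highest array labelled WT. The ILV2 difference was -0.45 (SE 0.31, limma adjusted p = 0.382), with a 95% interval from -1.19 to 0.29. ILV6 was at 11.49, 11.44 and 11.43 on the arrays labelled WT and at 10.64, 11.47 and 11.36 on those labelled gpm1. Here too replicate 1 alone stood off, 1.76-fold below the WT mean, while replicates 2 and 3 lay within 0.10 of it on the log2 scale. Its difference was -0.30 (SE 0.22, adjusted p = 0.420). The regulatory subunit thus followed the catalytic one on replicate 1, at -0.82 beside -1.18.

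ILV5 encodes acetohydroxyacid reductoisomerase, which is also known to help keep mitochondrial DNA stable. It had the largest difference of the 10, at 11.87, 11.93 and 11.87 for the label WT and at 10.93, 11.11 and 12.01 for the label gpm1. Replicates 1 and 2 were both low, 1.94-fold and 1.72-fold below the WT mean, whereas replicate 3 lay above every array labelled WT, so the groups overlapped. The difference was -0.54 (SE 0.28, adjusted p = 0.279), with an interval from -1.21 to 0.13. Without labelled gpm1 replicate 3 ILV5 passed at -0.87 (SE 0.08, adjusted p = 0.0017), in a fit in which 19.5% of all genes passed as lower. ILV3 encodes dihydroxyacid dehydratase, an iron-sulfur enzyme that acts right after Ilv5. Its values were 10.98, 11.06 and 11.02 on the arrays labelled WT, and 10.99, 11.32 and 11.05 on those labelled gpm1. Replicate 1, low for the subunits and for ILV5, here lay among the arrays labelled WT, and replicate 2 was the highest of all 6. The ILV3 difference was 0.10 (SE 0.11, adjusted p = 0.598), with an interval from -0.18 to 0.37.

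LEU4 and LEU9 encode the paired isopropylmalate synthases, of which Leu4 is the main form and is inhibited by leucine. LEU4 was at 11.82, 11.93 and 11.92 on the arrays labelled WT and at 11.22, 11.54 and 11.97 on those labelled gpm1. Its values therefore ordered as those of ILV5 did, with replicate 1 lowest, replicate 2 between, and replicate 3 just above the arrays labelled WT. The difference was -0.32 (SE 0.19, adjusted p = 0.336). Without replicate 3 LEU4 passed at -0.51 (SE 0.12, adjusted p = 0.0205), again in the fit in which 19.5% of all genes passed as lower. LEU9 was at 9.03, 9.11 and 9.06 on the arrays labelled WT and at 8.50, 9.45 and 9.41 on those labelled gpm1. It was low on replicate 1 like its paralogue, but above all arrays labelled WT on replicates 2 and 3. Its group difference was 0.06 (SE 0.26, adjusted p = 0.896), and without replicate 1 it was 0.37 (SE 0.07, adjusted p = 0.091).

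LEU1 and LEU2 encode the cytosolic enzymes of the leucine branch, isopropylmalate isomerase, which holds an iron-sulfur cluster, and isopropylmalate dehydrogenase. LEU2 is also a marker gene deleted in many laboratory strains. Its signal was above the background percentile on all 6 arrays, at 10.54, 10.62 and 10.53 for the label WT and at 9.06, 10.42 and 10.85 for the label gpm1. Replicate 1 was 2.84-fold below the WT mean, the farthest of the 10 genes on that array, where only 2.64% of all genes lay lower. Replicate 3 was 1.22-fold above it. The LEU2 difference was -0.45 with the widest interval of the 10, from -1.51 to 0.61 (SE 0.44, adjusted p = 0.527). LEU1 was at 10.57, 10.67 and 10.64 on the arrays labelled WT and at 9.62, 10.55 and 10.72 on those labelled gpm1. It was 2.00-fold below the WT mean on replicate 1, just inside the limit of 2-fold, and within 0.10 of it on replicates 2 and 3. Its difference was -0.33 (SE 0.28, adjusted p = 0.481). Without replicate 1 the differences of LEU1 and LEU2 were 0.01 (adjusted p = 0.938) and 0.08 (adjusted p = 0.735).

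BAT1 and BAT2 encode the mitochondrial and the cytosolic branched-chain aminotransferase. In yeast BAT1 is known for higher expression in growing cells and BAT2 for higher expression near stationary phase, when it serves breakdown of these amino acids. BAT1 was at 10.59, 10.58 and 10.55 on the arrays labelled WT and at 10.51, 10.98 and 10.66 on those labelled gpm1. BAT2 was at 9.75, 9.81 and 9.84, and at 9.74, 9.19 and 9.67. On replicate 1 both aminotransferase genes lay within 0.07 of the WT mean. On replicate 2 they parted, with BAT1 1.33-fold above and BAT2 1.53-fold below. The BAT1 difference was 0.14 (SE 0.14, adjusted p = 0.522), with an interval from -0.19 to 0.47. The BAT2 difference was -0.27 (SE 0.16, adjusted p = 0.334), with an interval from -0.65 to 0.12. BAT2 was the 1 gene of the 10 whose groups did not overlap, by a gap of only 0.0061 on the log2 scale, where 15.4% of all genes were lower with no overlap.

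**Figure D2:**
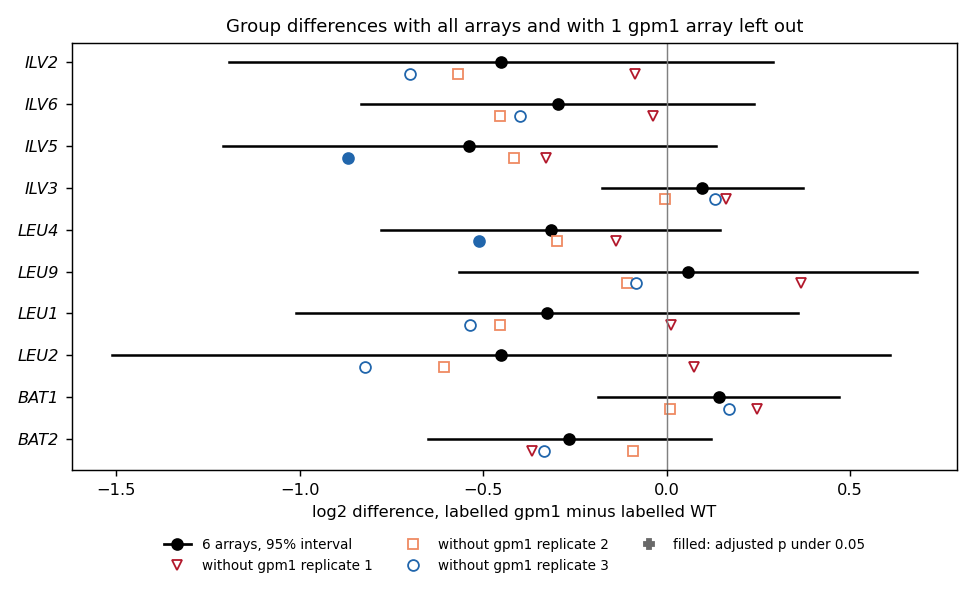
Log2 difference of each of the 10 genes, labelled gpm1 minus labelled WT, with its 95% interval from limma on all 6 arrays in black and the value with 1 array labelled gpm1 left out in colour. All 10 intervals include 0, and the filled symbols, which passed an adjusted p of 0.05, are ILV5 and LEU4 without replicate 3.

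Whether the 2 genes of each paralogue pair moved unequally was asked with their difference within each array, which carries probe effects, so only its change between groups was read. BAT1 minus BAT2 was 0.85, 0.77 and 0.72 on the arrays labelled WT and 0.77, 1.79 and 0.99 on those labelled gpm1. The high value was that of replicate 2, and the change of 0.41 (SE 0.31, n = 3 per group) gave an exact two-sided permutation p of 0.2. LEU4 minus LEU9 was 2.79, 2.83 and 2.86 on the arrays labelled WT and 2.71, 2.09 and 2.56 on those labelled gpm1. All 3 arrays labelled gpm1 lay below the others, and the change of -0.37 (SE 0.19, n = 3 per group) gave an exact permutation p of 0.1. That is the smallest p that 3 against 3 arrays allow, and adjusted over the 2 pairs both stood at 0.2, so the design could not have shown either change at 0.05. With 1 array left out the LEU4 minus LEU9 change lay between -0.50 and -0.19 and the BAT1 minus BAT2 change between 0.10 and 0.61, the lowest being that without labelled gpm1 replicate 2. Without that array the differences of BAT1 and BAT2 themselves were 0.0088 and -0.09.

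Among themselves the 10 genes fell into no sharp classes, but on replicate 1 a gap separated 7 of them from the rest. ILV2, ILV6, ILV5, LEU4, LEU9, LEU1 and LEU2 lay between -1.51 and -0.56 against the WT mean, and BAT1, BAT2 and ILV3 between -0.07 and -0.03. This division was seen in the values and was not tested. Both the 7 and the other 3 hold mitochondrial and cytosolic enzymes. Across the 3 arrays labelled gpm1 the SD ran from 0.18 for ILV3 to 0.94 for LEU2, with a median of 0.49 beside 0.25 for all genes. Across those labelled WT it ran from 0.02 to 0.06, with a median of 0.04. A larger SD among the arrays labelled gpm1 was seen for all 10 genes and for 94.6% of all genes.

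**Figure D3:**
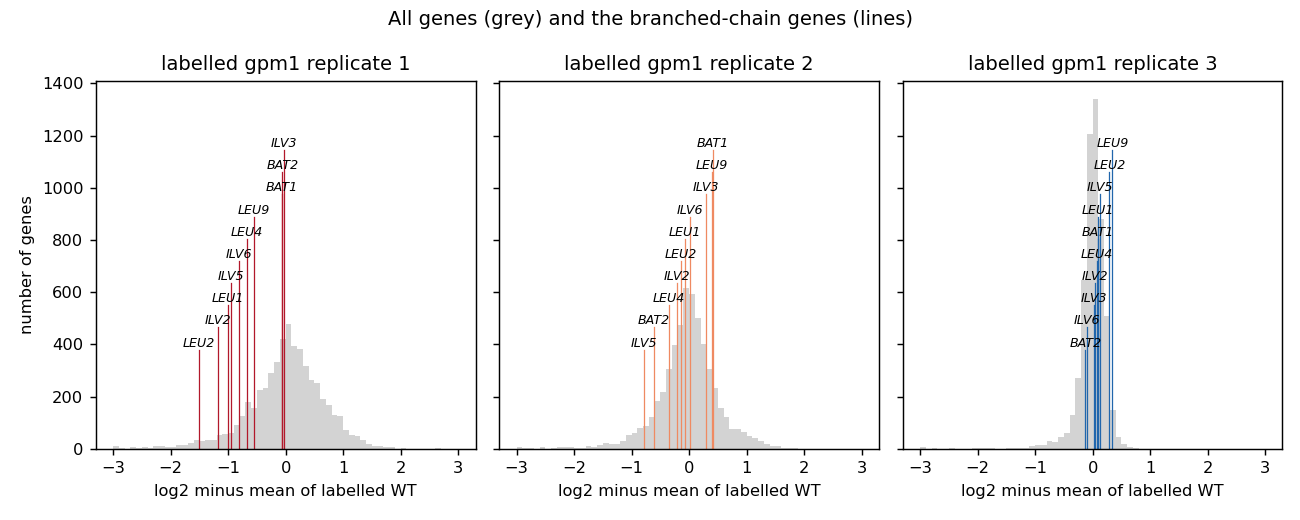
Log2 value minus the mean of the arrays labelled WT for all 5449 genes (grey histogram, values beyond the axis placed in its end bins) and for the 10 genes (coloured lines; line height only separates the names) on each array labelled gpm1. On replicate 1, 7 genes sit in the left flank of the histogram, down to -1.51 for LEU2, while on replicate 3 all 10 lie between -0.13 and 0.34.

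The genes around the pathway were read from lists of the isoleucine branch, regulators, transporters, breakdown by the Ehrlich pathway and pantothenate synthesis. In the isoleucine branch and its threonine supply 0 of 7 genes passed, where 0.807% of all genes did. The same share stands beside the counts over all 6 arrays in the lists that follow. ILV1, for the threonine deaminase that opens isoleucine synthesis, was 10.03, 10.05 and 10.13 on the arrays labelled WT and 9.37, 9.86 and 10.07 on those labelled gpm1, with replicate 1 lowest. Its difference was -0.31 (SE 0.18, adjusted p = 0.333). HOM3, for the aspartate kinase that starts threonine synthesis, was 1.55 below the WT mean on the log2 scale on replicate 1, and differed by -0.76 (adjusted p = 0.238). THR4, for threonine synthase, went the other way, at 11.20, 10.81 and 10.26 against 10.19 ± 0.05 (SD, n = 3) on the arrays labelled WT. It had the smallest p of that list and a difference of 0.57 (adjusted p = 0.219). Replicate 1 gave the lowest of the 6 values for 5 of these 7 genes, where it did so for 27.5% of all genes. The exceptions were THR4 and CHA1.

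Of the 6 regulators measured 0 passed. LEU3 itself was at 7.37, 7.43 and 7.32 on the arrays labelled WT and at 7.19, 7.08 and 7.49 on those labelled gpm1, a difference of -0.12 (SE 0.13, adjusted p = 0.577). GCN4 was at 12.27 ± 0.02 (SD, n = 3) and 12.14 ± 0.06, a difference of -0.14 (adjusted p = 0.329). Gcn4 is known to be controlled mainly at the translation of its transcript. GCN2, for the kinase that senses uncharged tRNA, was low on replicates 1 and 2, at 6.65 and 6.78 beside 7.56 on replicate 3, and differed by -0.64 (adjusted p = 0.210). The regulator with the smallest p was DAL81, for a transcription factor of nitrogen and amino acid use, which differed by 0.32 (adjusted p = 0.208). GDH1, a further Leu3 target outside the pathway that encodes glutamate dehydrogenase, differed by 0.11 (SE 0.09, adjusted p = 0.460).

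Of 6 genes for uptake and transport 0 passed. BAP2, for a permease of leucine, isoleucine and valine, was at 8.48, 8.51 and 8.24 on the arrays labelled WT and at 7.64, 7.29 and 8.13 on those labelled gpm1. All 3 of the latter lay below all of the former, as was so for 15.4% of all genes. The BAP2 difference of -0.73 (SE 0.22, adjusted p = 0.196) came with the smallest p among these 6. BAP3 and AGP1, for permeases known to be induced by amino acids outside the cell, showed another order of the arrays. AGP1 was at 9.60 ± 0.15 (SD, n = 3) on the arrays labelled WT and at 9.54, 7.73 and 7.83 on those labelled gpm1. BAP3 was at 7.04 ± 0.07 and at 7.94, 5.60 and 5.21, and its last 2 values lay under the background percentile of 6.10. In smaller size TAT1 was also highest on replicate 1, at 0.27, -0.36 and -0.17 against the WT mean on replicates 1, 2 and 3. GAP1, BAP2 and OAC1 did not share that pattern and lay below the WT mean on replicate 1, at -1.50, -0.77 and -0.44. Replicate 1, low for most of the synthesis genes, was thus the array labelled gpm1 on which AGP1, BAP3 and TAT1 stood highest. Without it AGP1 passed at -1.82 (adjusted p = 0.0077) and BAP3 at -1.64 (adjusted p = 0.0163). In that fit 1.06% of all genes passed as lower, and TAT1 did not pass, at -0.26 (limma adjusted p = 0.207). With all 6 arrays the adjusted p-values of AGP1 and BAP3 were 0.212 and 0.477. OAC1, for the mitochondrial carrier that exports isopropylmalate, differed by -0.01 (SE 0.19, adjusted p = 0.992).

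The Ehrlich pathway turns branched-chain and aromatic amino acids into higher alcohols. Of its 9 genes 1 passed, as lower, where 0.807% of all genes passed in either direction. The gene that passed was PDC6, for a minor pyruvate decarboxylase, at 8.31 ± 0.09 (SD, n = 3) and 7.43 ± 0.08. Its difference was -0.89 (SE 0.09, adjusted p = 0.0168). PDC6 no longer passed when WT replicate 1, 2 or 3 or gpm1 replicate 2 was left out, nor with the replicate number of the labels as a block. ARO9 and ARO10, for an aromatic aminotransferase and the decarboxylase that acts on the keto acids, were higher on replicates 1 and 2. ARO9 was at 8.56, 8.62 and 7.80 against 7.58 ± 0.04, a difference of 0.74 (adjusted p = 0.196). ARO10 was at 7.30, 7.33 and 6.65 against 6.61 ± 0.06, a difference of 0.49 (adjusted p = 0.220). Without replicate 3 both passed, at 1.01 and 0.71 (adjusted p = 0.00095 and 0.0021), where 21.6% of all genes passed as higher. PDC1 went the other way, with a difference of -0.50 over all 6 arrays (SE 0.12, adjusted p = 0.164). In the fit without replicate 3, 2 of the 9 genes passed as lower, PDC6 and PDC1, where 19.5% of all genes did. PDC1 was at -0.47 there (adjusted p = 0.0351). In pantothenate synthesis, which draws on ketoisovalerate, 0 of 3 genes passed. All 3 were higher on every array labelled gpm1 than on any labelled WT, as were 19.2% of all genes. The largest of these was PAN6, for pantothenate synthase, at 0.32 (SE 0.10, adjusted p = 0.196).

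**Figure D4:**
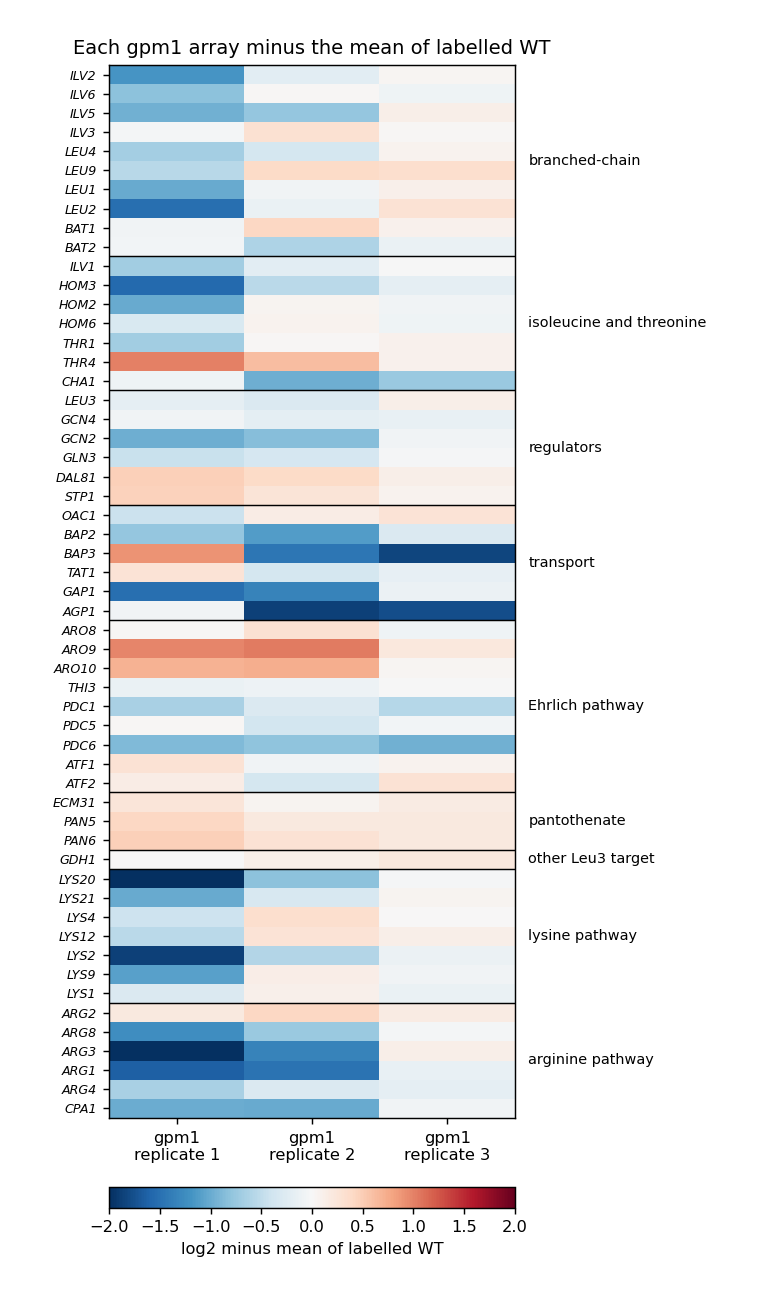
Log2 value minus the mean of the arrays labelled WT, from blue (lower) to red (higher) with the colour held at 2 and -2, for the 10 branched-chain genes and the genes of the related lists on each array labelled gpm1. Replicate 1 is blue for most synthesis genes, while BAP3 and AGP1 are blue on replicates 2 and 3 and not on replicate 1.

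The lysine and arginine pathways, which Gcn4 also activates, were set beside the branched-chain genes. Lysine synthesis repeats the chemistry of the leucine branch, with LYS20 and LYS21 for homocitrate synthases, LYS4 for an isomerase with an iron-sulfur cluster and LYS12 for a dehydrogenase. By limma 0 of 7 lysine genes and 0 of 6 arginine genes passed, with medians of -0.34 and -0.68 beside -0.31 for the 10 branched-chain genes. The smallest p of each list was that of LYS20 at -0.95 (SE 0.46, adjusted p = 0.260) and of ARG1, for argininosuccinate synthase, at -1.09 (SE 0.38, adjusted p = 0.204). At an unadjusted p under 0.05 there were 0 of 7 lysine and 4 of 6 arginine genes, beside 22.4% of all genes. Against the WT mean the lysine median was -1.01, 0.10 and -0.03 in labelled gpm1 replicates 1, 2 and 3, and the arginine median was -1.12, -0.88 and -0.05. On replicate 2, where the branched-chain median was -0.11, 5 of the 6 arginine genes lay below all arrays labelled WT, as did 6 of the 10 branched-chain and 3 of the 7 lysine genes, beside 45.3% of all genes. In the fit without replicate 3, 2 of the 7 lysine genes passed as lower, 5 of the 6 arginine genes passed as lower and 1 as higher, and 2 of the 10 branched-chain genes passed as lower. Of all genes 19.5% passed as lower and 21.6% as higher in that fit, so the lysine and branched-chain counts were near the general rate. These differences between the lists were not tested.

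Outside these lists, the genes whose profile over the 6 arrays was most like the mean of the 10 were SHM2, ADE6, FMP25, MRPL3 and ADE17, with Pearson's r from 0.997 to 0.999. SHM2 encodes the cytosolic serine hydroxymethyltransferase, ADE6 and ADE17 encode enzymes of purine synthesis, MRPL3 a protein of the mitochondrial ribosome and FMP25 a mitochondrial inner membrane protein. On replicate 1 they lay 1.32 to 1.68 below the WT mean on the log2 scale, and without that array r was between 0.952 and 0.989 over 5 arrays. The most alike, SHM2, was at 11.71, 11.76 and 11.74 on the arrays labelled WT and at 10.06, 11.47 and 11.97 on those labelled gpm1. The 5 were chosen for this likeness, so the values are a description. The mean of the 10 did not stand for every member. Against the mean of the other members r was 0.12 for ILV3, 0.19 for BAT1 and -0.08 for BAT2. For the rest it ran from 0.76 to 0.99. Without replicate 1 it was -0.38 for LEU9, -0.78 for ILV3, -0.84 for ILV6 and -0.79 for BAT1. For the rest it then ran from 0.41 to 0.92.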

How the data were processed

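The deposited table holds log2 values of 10928 probe sets on 6 arrays, made by the authors with PLIER, as the submitters' processing notes name it. The base of the log was taken from the range of 4.88 to 13.12. Any offset, scaling or version is not given in the sources used here, nor is a genome build. Probe sets were named through the platform annotation and gene IDs of the S. cerevisiae table of assembly R64. Where a gene had several probe sets, the one with the highest mean over 6 arrays was used, giving 5449 genes. Of 48 related genes listed, 45 were used; the others were not analysed here. Labelled gpm1 was compared with labelled WT by limma 3.58.1 in R 4.3.3 (lmFit and eBayes, two-sided, Benjamini-Hochberg over all 5449 genes, threshold 0.05). Paralogue pairs were compared by exact permutation. Genes named were the 10, those of each related list that passed or had the smallest p, and the 5 most alike; others of the lists were open to naming. Members, lists and tests were chosen with earlier results of these data known. The number of arrays limits the precision. Plots were drawn with matplotlib 3.10.9.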

Additional observations from a re-analysis of the deposited data

How the results depend on the processing

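Under 16 alternatives (normalization, offset, filter, prior, probe set choice, array weights, replicate block and leaving out each array), 0 of the 10 branched-chain genes passed in 14. The exceptions were ILV5 with array weights, whose estimation stopped short of convergence (1 gene, -0.65), and ILV5 with LEU4 without labelled gpm1 replicate 3 (2 genes). With 1 array left out the count ranged from 0 to 2, that of related genes from 0 to 22 and that of all genes from 11 to 2240, against 0, 1 and 44. The count of related genes was 15 with array weights and 0 with the replicate block, and that of all genes was 1009 and 31. With 1 array left out LEU1 ranged from -0.54 to 0.011 and LEU2 from -0.82 to 0.075, turning sign without gpm1 replicate 1. LEU9 ranged from -0.11 to 0.37, turning without gpm1 replicate 2 or 3, and ILV3 from -0.0039 to 0.16, turning without gpm1 replicate 2. The cause was not tested. The median of the 10 genes ranged from -0.46 to -0.01 with 1 array left out and from -0.33 to -0.29 otherwise. No label says that same-numbered arrays belong together. Their deviations from the group means correlated at 0.05, 0.02 and -0.13 over genes, and those of differently numbered arrays at -0.24 to 0.18. With 3 arrays per group these values cannot decide whether the arrays were paired. The replicate block changed no call among the 10 genes.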
